A study of Mus musculus with 8 samples.

Results

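The genes described here are 10 mouse genes of cellular iron handling: Tfrc, Steap3 and Slc11a2 for uptake, Fth1, Ftl1 and Ncoa4 for storage, Slc40a1 for export, Hmox1 for heme breakdown, and Ireb2 and Aco1, which encode the iron regulatory proteins. They were chosen by name from the 24421 gene symbols of the count files, all 10 were present, and all 10 passed the filter on low counts. RNA came from splenic naive CD4+ T cells of C57BL/6 mice, labelled male and 6 to 8 weeks old, purified with a naive T cell isolation kit. The 4 libraries titled E1KO stand by their name for mice in which Cre, driven by Cd4, deletes floxed Pcbp1 in T cells from the thymus onward, and the 4 titled E1WT for wild-type mice. The genotype field of every sample states the reverse of its title (Pcbp1+/+Cd4-Cre for E1KO, Pcbp1fl/flCd4-Cre for E1WT, so that Cd4-Cre is named in both), and groups are named by title throughout.

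The libraries held 28264655 to 36738202 gene counts. Pcbp1 stood at 38.8 to 42.4 CPM (counts divided by the library's gene counts and scaled to a common total) in E1KO libraries and at 196 to 240 CPM in E1WT libraries (log2 fold -2.49 ± 0.07 SE, edgeR adjusted p = 2.57e-09), so its level follows the titles and not the genotype fields. Against the male label, Xist, the RNA of the inactive X chromosome, stood at 406 ± 30.4 CPM in E1KO and 1.48 ± 1.06 CPM in E1WT libraries, while the Y-linked Ddx3y stood at 55.5 ± 2.79 and 106 ± 4.68 CPM (SD, n = 4 each). Sex-linked RNA therefore cannot be told apart from title in any result below, although none of the 10 genes lies on the X chromosome. The share of counts assigned to no gene was also lower in every E1KO library (28.2% to 30.8%) than in any E1WT library (33.3% to 37.0%). Markers of naive CD4+ T cells were abundant in both titles, at a summed 5570 to 5772 CPM in E1KO and 6050 to 6229 CPM in E1WT libraries over 9 markers. Of these, 3 were called lower and 1 higher, while 5 were lower by DESeq2 and 7 with each library's trend of expression with exon length removed. Markers of other cells were also higher in part, with 6 of 9 dendritic cell, 1 of 3 plasma cell, 2 of 7 NK cell, 1 of 4 megakaryocyte, 2 of 8 B cell, 1 of 9 neutrophil and 0 of 2 CD8 T cell markers called higher, and 3 neutrophil, 1 B cell and 1 CD8 T cell marker called lower. Across all genes tested, 12.2% were called higher and 11.1% lower, and several of these marker counts rest on 1 or 2 genes. Several marker counts also moved when 1 library was left out. Higher NK cell markers numbered 1 without E1KO 1, E1KO 3 or E1WT 4, and higher B cell markers 1 without E1KO 3, E1KO 4, E1WT 1, E1WT 3 or E1WT 4. Lower B cell markers numbered 2 without E1KO 1, and higher megakaryocyte markers 2 without E1KO 3 or E1WT 2. Dendritic cell markers called higher ran from 4 to 6. Higher neutrophil markers numbered 0 without E1KO 1, E1KO 4, E1WT 1 or E1WT 3, and lower ones 1 without E1KO 2, E1KO 3, E1WT 1 or E1WT 3, and 2 when any one of the other libraries was left out.

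Cells take up iron as transferrin bound to the transferrin receptor, reduce it in endosomes and pass it to the cytosol, where iron chaperones such as PCBP1 and PCBP2 load it into ferritin. When cytosolic iron is scarce, the iron regulatory proteins IRP1 (the product of Aco1, which otherwise holds an iron-sulfur cluster and acts as an aconitase) and IRP2 (the product of Ireb2) bind a hairpin called the iron-responsive element (IRE). Binding in a 3′ UTR protects the transferrin receptor mRNA from decay, so that its level can follow iron, whereas binding in a 5′ UTR blocks translation of ferritin and ferroportin mRNA and need not alter their level. T cells need the transferrin receptor to proliferate after activation.

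The hairpin sequences are shown because they mark which of the 10 transcripts match the pattern of this element and at which end. The pattern searched on the sense strand of GENCODE M21 coding transcripts was an unpaired C, 5 bases, the loop CAGTGN and 5 bases that pair with the 5 before the loop, with at most 1 mismatch and G-U pairs allowed. It was found in the UTRs of 5 of the 10 genes. Capitals mark the unpaired C and the 6-base loop, and each line gives 29 bases of GRCm38 sequence on the transcript's strand, 5′ to 3′.
Tfrc 3′ UTR, chr16:32631219-32631247, plus strand: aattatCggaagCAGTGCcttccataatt
Tfrc 3′ UTR, chr16:32631598-32631626, plus strand: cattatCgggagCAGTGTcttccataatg
Tfrc 3′ UTR, chr16:32631663-32631691, plus strand: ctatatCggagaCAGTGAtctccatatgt
Tfrc 3′ UTR, chr16:32631710-32631738, plus strand: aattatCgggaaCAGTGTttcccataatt
Slc11a2 3′ UTR, chr15:100395153-100395181, minus strand: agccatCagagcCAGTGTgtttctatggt
Fth1 5′ UTR, chr19:9982732-9982760, plus strand: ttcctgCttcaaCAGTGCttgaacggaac
Ftl1 5′ UTR, chr7:45459779-45459807, minus strand: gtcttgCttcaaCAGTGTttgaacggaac
Slc40a1 5′ UTR, chr1:45925465-45925493, minus strand: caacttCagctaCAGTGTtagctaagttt

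The Slc11a2 site has 1 mismatch in the 5 pairs checked and the other sites have 0. The Slc11a2, Tfrc and Ftl1 sites lie in 1 of 2 annotated coding transcripts each, and counts per gene do not separate these transcripts. With 0 mismatches the pattern occurs in the 5′ UTR of 0.134% of 20873 genes and in the 3′ UTR of 0.586% of 21669 genes; with 1 mismatch allowed the shares are 0.838% and 3.96%.

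**Figure D1:**
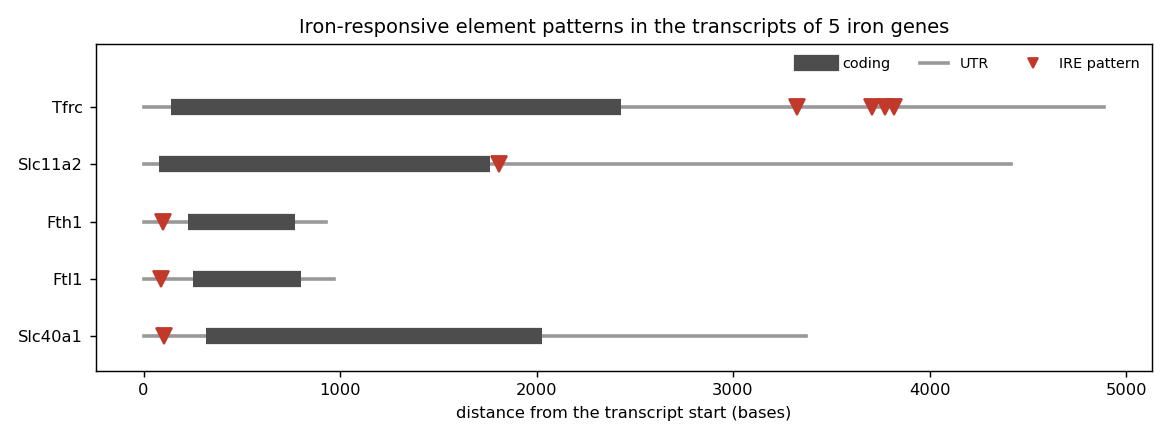
Position of the IRE pattern along 1 GENCODE transcript of each of 5 iron genes, in bases from the transcript start, with thick bars for coding sequence and thin lines for UTRs. Tfrc carries 4 patterns and Slc11a2 carries 1 after the coding sequence, while Fth1, Ftl1 and Slc40a1 carry 1 each before it.

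Of the 10 genes, 4 were higher in E1KO libraries (Tfrc, Steap3, Slc40a1 and Aco1), 0 were lower and 6 did not pass the edgeR quasi-likelihood test at an adjusted p of 0.05; 5 of the 10 had an unadjusted p below that level, Ireb2 being the fifth. Across all 13333 genes tested, 12.2% were called higher, 11.1% lower and 23.3% in either direction. The median log2 fold was 0.09 over the 10 genes and 0.01 over all genes tested. In plain CPM, the E1KO and E1WT libraries did not overlap for 5 of the 10 genes, all higher in E1KO and Ncoa4 among them. Of all genes tested, 27.1% did not overlap, 18.7% higher and 8.44% lower. Plain CPM leaves out the edgeR scaling factors (TMM), 1.01 to 1.03 in E1KO and 0.97 to 0.99 in E1WT libraries. These factors lower E1KO and raise E1WT levels, so narrow gaps such as that of Ncoa4 need not hold on the edgeR scale. The genes were chosen with earlier results of these data known, so these counts describe the genes and are no test of the group. In bulk RNA, more cells of a type and more RNA per cell cannot be told apart.

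**Figure D2:**
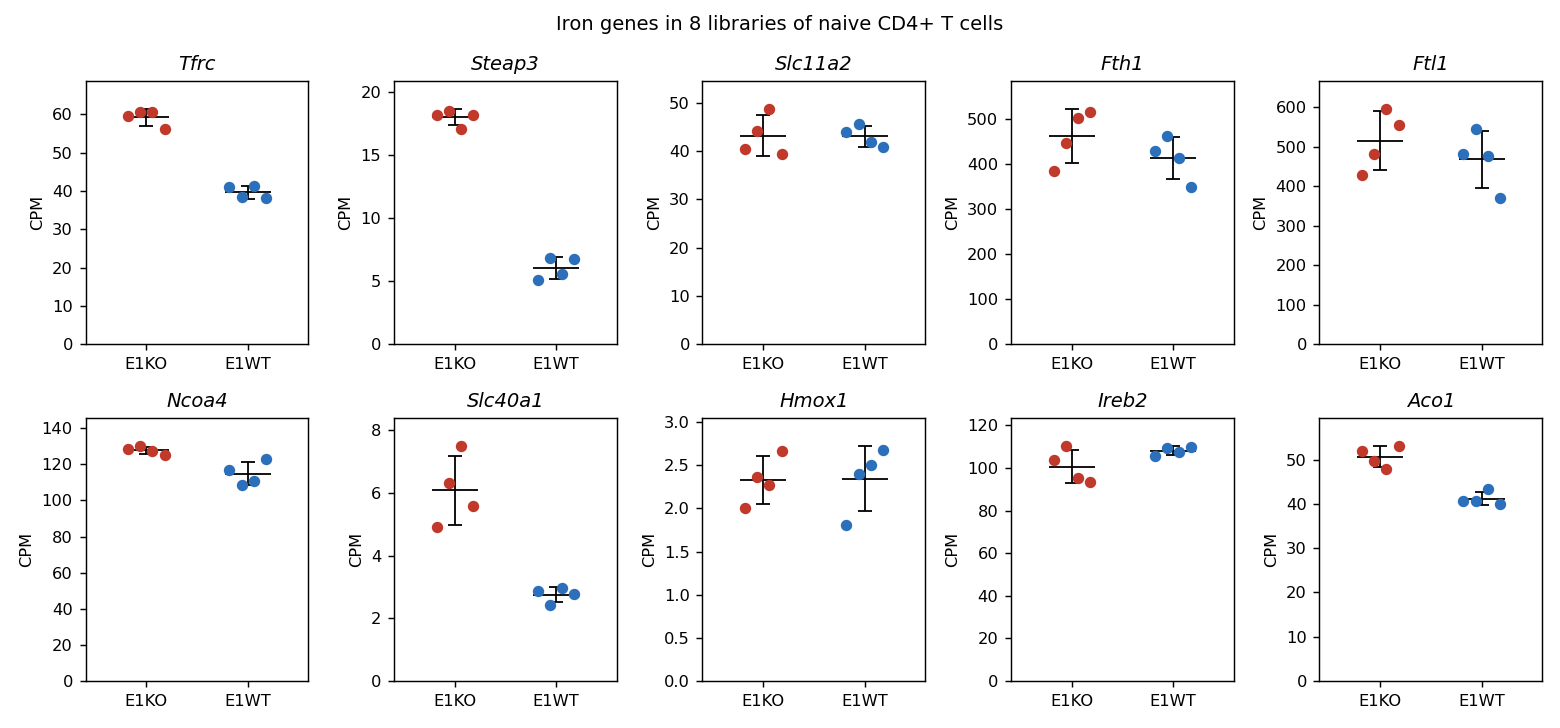
CPM of the 10 iron genes, each point a library, with E1KO libraries left and E1WT libraries right and the mean ± SD in black, every axis starting at 0. In these values, without TMM scaling, the titles separate without overlap for Tfrc, Steap3, Ncoa4, Slc40a1 and Aco1.

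Among the uptake genes, Tfrc encodes the transferrin receptor, which carries transferrin-bound iron into endosomes (chromosome 16, 32608920 to 32632794, plus strand, GRCm38, ENSMUSG00000022797.16). Tfrc was at 59.5, 60.6, 60.6 and 56.1 CPM in the 4 E1KO libraries and at 40.9, 38.3, 41.4 and 38.1 CPM in the 4 E1WT libraries. The lowest E1KO library lay well above the highest E1WT library, and the spread within each title was small. The log2 fold was 0.51 ± 0.06 (SE; 95% confidence interval 0.39 to 0.64; edgeR adjusted p = 0.00011), equal to a 1.43-fold higher level. Over 17 settings of the analysis the log2 fold stayed between 0.49 and 0.54, and its largest adjusted p was 0.0023.

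Steap3, a ferrireductase that reduces iron released from transferrin in endosomes, rose most of the 10 genes (chromosome 1, 120190757 to 120272705, minus strand, ENSMUSG00000026389.16). Steap3 was at 18.2, 18.6, 17.1 and 18.2 CPM in E1KO libraries, against 5.06, 6.83, 5.57 and 6.73 CPM in E1WT libraries. Every E1KO library was more than 10 CPM above every E1WT library. The log2 fold was 1.51 ± 0.11 (SE; 95% confidence interval 1.26 to 1.75; edgeR adjusted p = 6.44e-06), a 2.84-fold difference, and it ranked at place 48 of the 13333 genes by p. The E1WT values rest on 143 to 251 counts a library and the E1KO values on 526 to 654.

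Slc11a2, which encodes DMT1, the transporter that moves reduced iron from the endosome to the cytosol, did not follow them (chromosome 15, 100387898 to 100425072, minus strand). Slc11a2 was at 40.4, 44.2, 48.6 and 39.3 CPM in E1KO libraries and at 43.8, 45.6, 41.9 and 40.8 CPM in E1WT libraries. The titles overlapped fully, with a log2 fold of -0.06 ± 0.07 (SE; 95% confidence interval -0.22 to 0.10; edgeR adjusted p = 0.59). The interval leaves out a change of the size seen for Tfrc. Slc11a2 shares 94 exon bases with Gm5475 on the other strand, and since strand use in counting is not given, reads in that stretch cannot be assigned.

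Ferritin, the iron storage shell, is built of a heavy chain with ferroxidase activity (Fth1) and a light chain that aids mineral formation (Ftl1). Fth1 (chromosome 19, 9980598 to 9985098, plus strand) was at 385, 447, 502 and 514 CPM in E1KO libraries and at 429, 462, 414 and 349 CPM in E1WT libraries. Ftl1 (chromosome 7, 45457944 to 45459884, minus strand) was at 428, 482, 596 and 556 CPM in E1KO libraries and at 482, 545, 477 and 371 CPM in E1WT libraries. Both chains overlapped between titles, and within each title both were lowest in the same library, E1KO 1 and E1WT 4. The log2 fold was 0.10 ± 0.10 for Fth1 (95% confidence interval -0.12 to 0.31; edgeR adjusted p = 0.51) and 0.08 ± 0.12 for Ftl1 (-0.18 to 0.33; edgeR adjusted p = 0.68). Removing each library's trend of expression with exon length lowered the SE to 0.05 for Fth1 and 0.04 for Ftl1, with log2 folds of 0.03 and 0.02 (edgeR adjusted p = 0.70 and 0.83). The spread of the ferritin chains within a title was thus smaller once that trend was taken out, and neither was called. Ferritin has processed pseudogenes, and reads that align to several places were kept out of gene counts. Both chains may therefore be counted only in part, which was not tested.

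The balance of the chains was likewise not shown to differ. The ratio of Fth1 to Ftl1 counts was 0.898, 0.926, 0.843 and 0.926 in E1KO libraries and 0.890, 0.847, 0.869 and 0.942 in E1WT libraries (two-sided exact permutation p = 0.71, adjusted over 3 such values 0.71). The ratio of Tfrc to Fth1 counts, uptake receptor over storage chain, was 0.155, 0.136, 0.121 and 0.109 in E1KO libraries and 0.0955, 0.0830, 0.0999 and 0.109 in E1WT libraries. The lowest E1KO library lay just under the highest E1WT library, and the difference of 0.42 on the log2 scale had a two-sided exact permutation p of 0.057 (adjusted 0.086), where the smallest p possible is 0.0286. Higher Tfrc against overlapping Fth1 thus did not separate all libraries as a ratio. The highest E1WT ratio was that of E1WT 4, the library with the lowest Fth1. The ratio was not corrected for each library's trend of expression with exon length.

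Ncoa4, the receptor that delivers ferritin to lysosomes so that its iron is released, was at 128, 130, 127 and 125 CPM in E1KO libraries and at 117, 109, 111 and 123 CPM in E1WT libraries (chromosome 14, 32159865 to 32179855, plus strand). The titles did not overlap in plain CPM but lay close together. The log2 fold of 0.09 ± 0.06 was not called (95% confidence interval -0.03 to 0.21, edgeR adjusted p = 0.26).

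Slc40a1 encodes ferroportin, the exporter of iron from cells (chromosome 1, 45908068 to 45926523, minus strand, ENSMUSG00000025993.10). Slc40a1 was at 4.90, 6.33, 7.501 and 5.58 CPM in E1KO libraries, against 2.87, 2.42, 2.96 and 2.76 CPM in E1WT libraries. It was low in all libraries, at 176 to 231 counts in E1KO and 81 to 101 counts in E1WT, yet the lowest E1KO library lay above the highest E1WT library. The log2 fold was 1.08 ± 0.16 (SE; 95% confidence interval 0.73 to 1.43; edgeR adjusted p = 0.00067), a 2.11-fold difference.

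Hmox1, the inducible heme oxygenase that frees iron from heme, was the least abundant of the 10 per exon length in E1KO libraries and also low in E1WT libraries (chromosome 8, 75093621 to 75100589, plus strand). Hmox1 was at 2.005, 2.37, 2.27 and 2.67 CPM in E1KO libraries and at 1.80, 2.40, 2.505 and 2.68 CPM in E1WT libraries. These values overlapped, and with 51 to 98 counts a library the interval was wide (log2 fold -0.08 ± 0.20; 95% confidence interval -0.51 to 0.35; edgeR adjusted p = 0.82).

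The genes of the iron regulatory proteins lay on opposite sides of 0, with only Aco1 called. Aco1 (IRP1; chromosome 4, 40143081 to 40198338, plus strand) was at 52.0, 49.6, 47.8 and 53.1 CPM in E1KO libraries and at 40.7, 40.6, 43.3 and 40.1 CPM in E1WT libraries. The titles did not overlap, and Aco1 rose by a log2 fold of 0.24 ± 0.06 (SE; 95% confidence interval 0.10 to 0.37; edgeR adjusted p = 0.018). The Aco1 call is lost without E1KO 4 (edgeR adjusted p = 0.063), without E1WT 1 (0.054), without E1KO 1 and E1WT 4 together (0.054), and with the replicate number as a block (0.067).

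Ireb2 (IRP2; chromosome 9, 54863789 to 54912530, plus strand) was at 104, 110, 95.3 and 93.2 CPM in E1KO libraries and at 105, 109, 108 and 110 CPM in E1WT libraries. In plain CPM, E1KO 1, E1KO 3 and E1KO 4 lay below all E1WT libraries and E1KO 2 lay just above all of them. The titles thus overlapped in plain CPM. TMM scaling lowers E1KO and raises E1WT levels, so this overlap need not hold on the scale of the log2 fold. The log2 fold of -0.17 ± 0.06 did not pass (95% confidence interval -0.30 to -0.03; edgeR adjusted p = 0.072), but it did pass without E1KO 2 (log2 fold -0.21, edgeR adjusted p = 0.041).

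**Figure D3:**
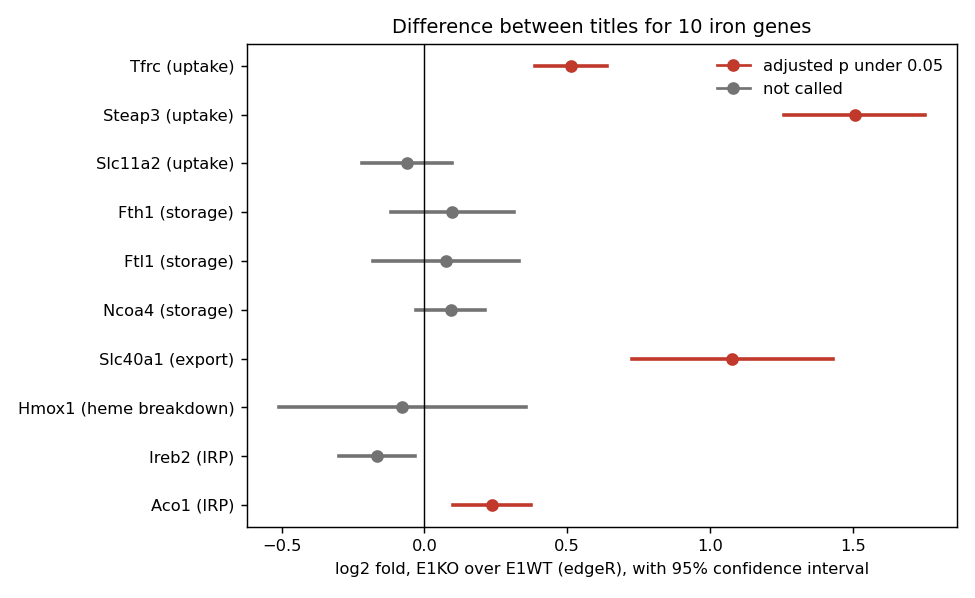
Log2 fold of E1KO over E1WT for the 10 iron genes with its 95% confidence interval from edgeR, red where the adjusted p is under 0.05. Steap3 (1.51), Slc40a1 (1.08), Tfrc (0.51) and Aco1 (0.24) are called, and of the grey genes only Ireb2 has an interval that leaves out 0 before adjustment.

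Set against the IRE patterns, 1 of the 2 genes with a pattern in the 3′ UTR was called higher (Tfrc) and 1 was not (Slc11a2), and 1 of the 3 genes with a pattern in the 5′ UTR was called higher (Slc40a1) and 2 were not (Fth1 and Ftl1). Steap3 and Aco1 rose and had no such pattern in the UTRs searched. The same search found no match in Epas1 and Cdc42bpa, listed below among IRE transcripts. Lack of a match therefore does not show lack of an IRE.

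Per kilobase of exon (FPKM), the order of levels was nearly the same in both titles. Ftl1 led with 533 ± 77.1 FPKM in E1KO and 484 ± 74.6 FPKM in E1WT libraries, followed by Fth1 with 296 ± 38.1 and 265 ± 30.3 FPKM (SD, n = 4 each). Ncoa4 came next with 31.2 ± 0.49 FPKM in E1KO and 28.03 ± 1.52 FPKM in E1WT libraries, then Ireb2 with 17.4 ± 1.37 and 18.7 ± 0.35 FPKM and Aco1 with 13.2 ± 0.62 and 10.7 ± 0.38 FPKM. Tfrc, at 11.4 ± 0.41 FPKM in E1KO, lay clear of Slc11a2 (7.52 ± 0.73 FPKM) there, whereas in E1WT libraries Tfrc at 7.64 ± 0.33 FPKM and Slc11a2 at 7.51 ± 0.37 FPKM overlapped. Steap3, at 3.19 ± 0.11 FPKM in E1KO, stood above Slc40a1 (1.80 ± 0.33 FPKM) and Hmox1 (1.48 ± 0.18 FPKM), which overlapped each other. In E1WT libraries Hmox1 (1.495 ± 0.24 FPKM) and Steap3 (1.07 ± 0.15 FPKM) overlapped, and Slc40a1 was last at 0.82 ± 0.07 FPKM.

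Erythroid precursors are known to hold much transferrin receptor and STEAP3, and RNA of genes that mark them was counted in these libraries; which cells it came from was not tested. Across all genes tested, 12.2% were called higher and 11.1% lower. Of 16 erythroid markers tested, 14 were higher in E1KO libraries and 0 lower, with a median log2 fold of 1.26. Over the 17 settings, 12 to 14 of these markers were called higher. Their summed level was 250, 271, 290 and 284 CPM in E1KO libraries, against 100, 109, 97.3 and 89.2 CPM in E1WT libraries (exact permutation test, two-sided p = 0.0286, which is the lowest this design allows; adjusted 0.086). The most abundant were Car1, a carbonic anhydrase, at 105 ± 14.7 and 34.5 ± 6.24 CPM in E1KO and E1WT libraries, and Aqp1, a water channel, at 53.6 ± 2.09 and 17.6 ± 1.90 CPM. Ermap and the erythroid factor Gata1 came next, at 43.0 ± 3.62 and 17.4 ± 1.46 CPM in E1KO and 15.1 ± 1.01 and 9.84 ± 0.94 CPM in E1WT libraries. The 4 globin markers, like all 10 hemoglobin symbols of the files, are listed at 0 in every library, and erythroid Alas2 was at 1.15 ± 0.59 CPM in E1KO and 1.87 ± 0.29 CPM in E1WT libraries.

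The size of the erythroid signal can be set beside that of the iron genes. Summed erythroid markers were 175 CPM higher in E1KO than in E1WT libraries, Tfrc was 19.5 CPM higher, Steap3 11.97 CPM, Aco1 9.49 CPM and Slc40a1 3.33 CPM. Summed markers were 2.77 times the E1WT level in E1KO libraries, Steap3 2.98 times, Slc40a1 2.21 times, Tfrc 1.49 times and Aco1 1.23 times, as ratios of mean CPM. The part of the erythroid markers in the rises of Tfrc and Steap3 was not tested.

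**Figure D4:**
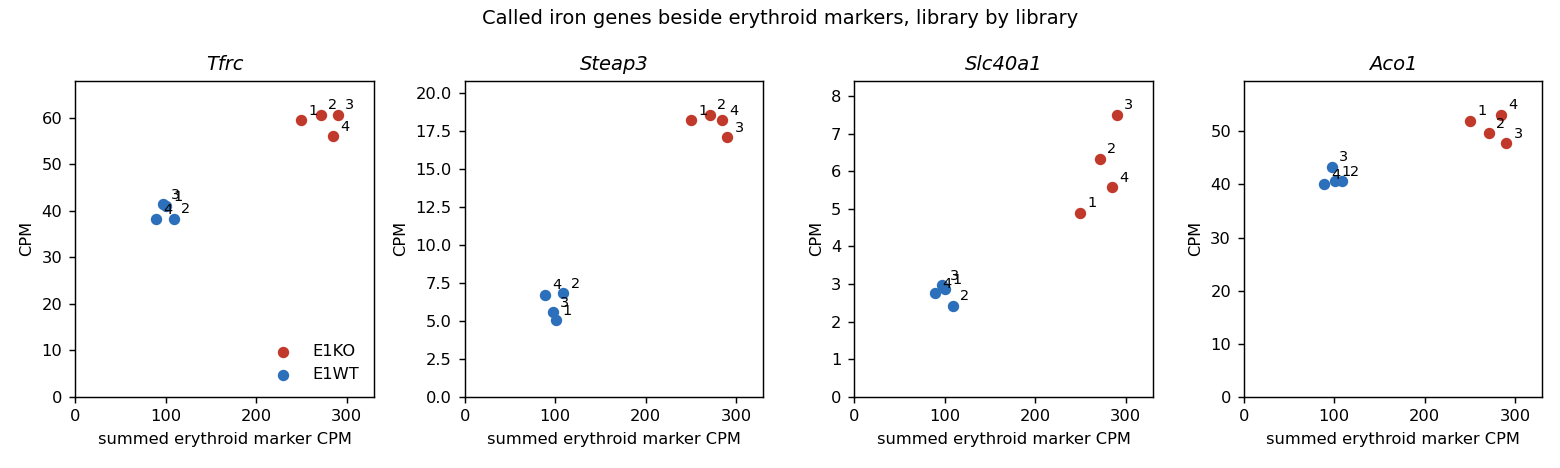
CPM of the 4 called iron genes against the summed CPM of erythroid markers, each numbered point a library (E1KO red, E1WT blue, number = replicate in the title), axes starting at 0. The titles form separate clouds. Within the E1KO cloud the library with the highest erythroid sum, E1KO 3, has the lowest Steap3 and Aco1 and the highest Slc40a1. Its Tfrc, at 60.6 CPM, is the highest together with that of E1KO 2.

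Markers of macrophages, whose splenic red pulp form exports iron through ferroportin, also differed. Of 9 red pulp macrophage markers tested 4 were higher and 1 lower, beside 12.2% and 11.1% of all genes tested. The sum of all 13 was 40.0 to 41.8 CPM in E1KO and 25.6 to 28.1 CPM in E1WT libraries. Axl, a receptor for dying cells, made up most of it at 26.4 ± 0.52 CPM in E1KO and 16.0 ± 1.38 CPM in E1WT libraries. Cd163, the hemoglobin scavenger receptor, was at 4.73 ± 0.78 and 4.81 ± 0.26 CPM and was not called, Itgad rose to 2.83 ± 0.62 CPM against 1.39 ± 0.16 CPM in E1WT libraries, and Vcam1 was at 2.26 ± 0.46 and 1.57 ± 0.24 CPM without a call. Spic, the factor that specifies red pulp macrophages, was picked with its values in view; it was under the filter at 0.20 ± 0.20 CPM in E1KO and 0.12 ± 0.07 CPM in E1WT libraries. The marker that fell was C1qb, a complement subunit, at 0.02 ± 0.03 CPM in E1KO and 0.45 ± 0.13 CPM in E1WT libraries. Monocyte markers were higher in 7 of 10 cases and lower in 0, with sums of 254 to 271 CPM in E1KO and 135 to 146 CPM in E1WT libraries. The part of these cells in the rise of Slc40a1 was not tested. The count of red pulp macrophage markers called higher was 2 without E1KO 2, E1KO 4 or E1WT 4, each left out alone, without E1KO 1 and E1WT 4 together, and with the replicate block.

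Other iron genes were read from 7 lists of 110 genes, of which 109 were in the files and 99 were tested. Of the 99, 18 were higher and 5 lower in E1KO libraries, with a median log2 fold of 0.09. In either direction this share is close to the 23.3% of all genes tested. By direction, the lists held more higher and fewer lower calls than the 12.2% and 11.1% of all genes tested. The deleted Pcbp1 is 1 of the 5 lower genes. The lists were chosen with earlier results known, so these counts are no test of them. In the uptake list 1 of 11 tested genes was called, Tfr2, the second transferrin receptor, known from liver and erythroid cells. Tfr2 was at 16.0, 14.2, 13.3 and 10.9 CPM in E1KO libraries and at 5.73, 5.58, 4.59 and 4.57 CPM in E1WT libraries (log2 fold 1.35 ± 0.14, edgeR adjusted p = 5.57e-05).

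Among storage and chaperone genes 1 of 9 rose and 2 fell, beside 12.2% higher and 11.1% lower over all genes tested. Pcbp1, the deleted gene, fell as given above, and Herc2, the ubiquitin ligase that targets NCOA4 for degradation, fell by 0.67 ± 0.12 on the log2 scale (271 ± 39.7 CPM in E1KO and 414 ± 62.9 CPM in E1WT libraries, edgeR adjusted p = 0.0027). The fall of Herc2, a long transcript, shrank to -0.34 with the exon-length trend removed. Pcbp4 rose by 0.37 ± 0.09 (17.4 ± 1.19 and 12.9 ± 1.18 CPM, edgeR adjusted p = 0.013).

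In the export and hepcidin list 3 of 8 genes in the files passed the filter and edgeR called 0, with 1 at an unadjusted p under 0.05, and DESeq2 called 0. Without E1KO 3, 1 was called higher. Its members with the smallest p were Hfe, the hemochromatosis gene, at 1.15 ± 0.60 CPM in E1KO and 0.50 ± 0.17 CPM in E1WT libraries (edgeR adjusted p = 0.085), and the ferroxidase Cp at 1.80 ± 0.51 and 2.49 ± 0.50 CPM (edgeR adjusted p = 0.17). Of 9 genes of IRP control and other IRE transcripts, 1 rose, Cdc42bpa (0.55 ± 0.17, edgeR adjusted p = 0.038), and 1 fell, Epas1, the hypoxia factor HIF-2 alpha (-0.31 ± 0.08, edgeR adjusted p = 0.017). Over all genes tested, 12.2% were called higher and 11.1% lower. Epas1 lost its call without E1WT 1 (edgeR adjusted p = 0.060), and Cdc42bpa lost it under 6 of 16 alternatives, without E1KO 1, 2 or 3, without E1WT 1 or 2, and with the replicate block (edgeR adjusted p = 0.062 to 0.10). Fbxl5, the iron-sensing ligase subunit that marks IRP2 for degradation, was at 58.2 and 54.6 mean CPM in E1KO and E1WT libraries with a log2 fold of 0.03 ± 0.06 (edgeR adjusted p = 0.77). Alas2, the erythroid form of the first heme enzyme, whose mRNA has an IRE and whose levels are given above, was not called (log2 fold -0.75 ± 0.35, edgeR adjusted p = 0.15). Fbxl5 and Alas2 were picked with their values in view.

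Heme genes were higher in 7 of 18 cases and lower in 0, with a median log2 fold of 0.16. By comparison, 12.2% of all genes tested were called higher and 11.1% lower. The count of heme genes called higher ran from 5 to 8 over the 17 settings. Those called higher included enzymes of heme synthesis. Cpox, coproporphyrinogen oxidase, was at 61.8, 62.9, 66.7 and 58.5 CPM in E1KO libraries and at 40.8, 43.2, 38.3 and 38.9 CPM in E1WT libraries (log2 fold 0.57 ± 0.06, edgeR adjusted p = 7.41e-05). Alad, an earlier enzyme of the pathway, rose by 0.58 ± 0.10, and Blvrb, a biliverdin reductase abundant in red cells, by 0.76 ± 0.15. The same libraries hold the erythroid markers given above, whose part in the heme genes was not tested.

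Among mitochondrial iron and iron-sulfur cluster genes 4 of 36 rose and 2 fell, shares no higher than the 12.2% and 11.1% of all genes tested, so the genes named here are single calls and no change of the list. Fdxr, the ferredoxin reductase that feeds electrons to cluster assembly, fell to 14.7 ± 2.11 CPM in E1KO libraries, against 25.5 ± 3.15 CPM in E1WT libraries (log2 fold -0.86 ± 0.12, edgeR adjusted p = 0.00033). Mms19, of the cytosolic cluster targeting complex, fell by 0.24 ± 0.06, and this call ended with the exon-length trend removed (edgeR adjusted p = 0.086). Abcb10 and Slc25a39, a mitochondrial transporter and carrier linked to heme and glutathione supply, rose by 0.50 ± 0.11 and 0.37 ± 0.09. The count of genes that rose was 2 without E1KO 4, without E1WT 1 or with the replicate block, and 7 without E1KO 1.

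Of 13 genes around NRF2 and BACH1, the factors that induce and repress Hmox1 and the ferritin genes, 4 rose and 0 fell. Of all genes tested, 12.2% were called higher and 11.1% lower. Hmox1, Fth1 and Ftl1 themselves were not called, and the activity of NRF2 and BACH1 was not tested. Cat, catalase, was at 107 ± 1.10 CPM in E1KO and 81.1 ± 1.47 CPM in E1WT libraries (log2 fold 0.33 ± 0.05, edgeR adjusted p = 0.00045). Osgin1, Txnrd1 and Nqo1 rose by 0.51 ± 0.11, 0.22 ± 0.06 and 1.19 ± 0.28, the last at 3.02 ± 0.97 and 1.26 ± 0.20 CPM in E1KO and E1WT libraries.

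**Figure D5:**
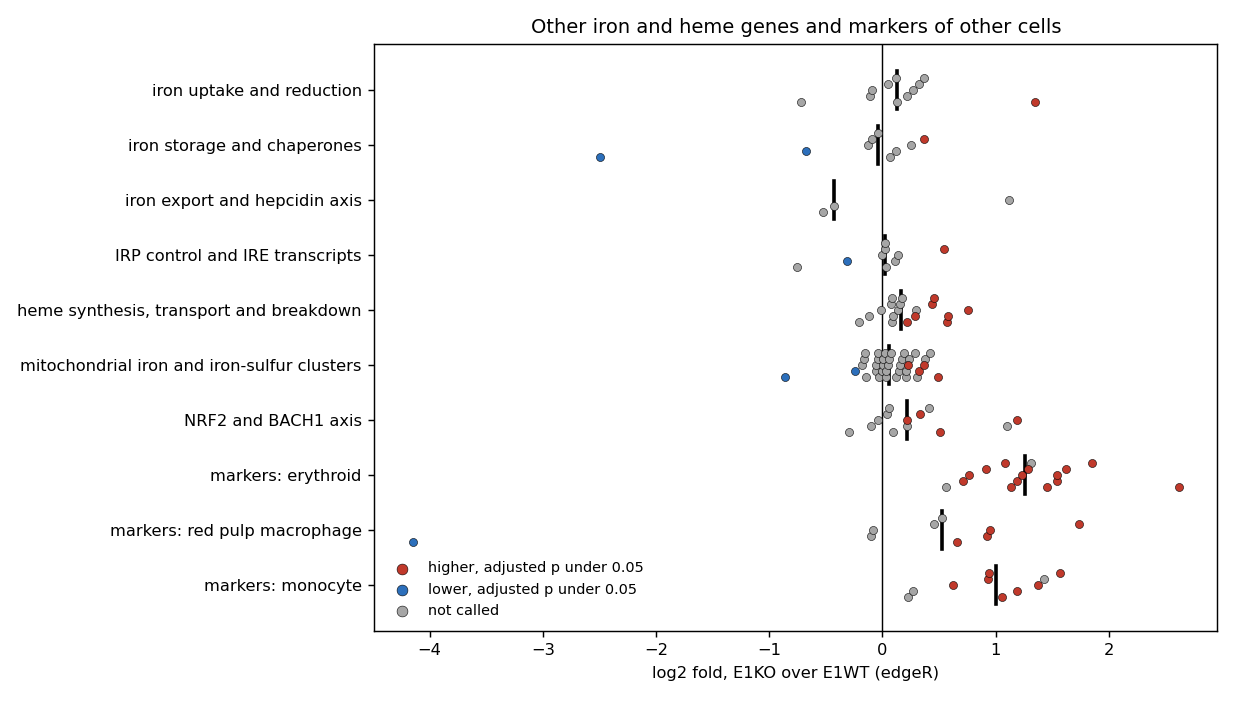
Log2 fold of E1KO over E1WT from edgeR for every tested gene of 7 iron-related lists and 3 marker lists, red or blue where called higher or lower, with a black bar at each list's median. The medians of erythroid (1.26) and monocyte (1.001) markers lie far to the right of those of the iron lists, and Pcbp1 is the blue point at -2.49.

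Finally, for each called gene the genes with the most similar levels over the 8 libraries were listed by Pearson correlation of log2 CPM, as a description in which the difference between titles carries most of the likeness. Tfrc was closest to Atp1b2, Il2ra and Samd14 (r = 0.99 each, 8 libraries). Steap3 was closest to Ms4a4c, Gpr55 and Cat (r = 0.99 each). Slc40a1 was closest to Trim46, Fcer1g and Irak2 (r = 0.99 each), and Aco1 to Nod1, Irf8 and Ube2z (r = 0.98 each).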

How the data were processed

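Per the submitters' processing notes, TopHat2 2.1.0, HTSeq 0.9.1 and build mm10 were used. Which annotation, strand setting and filters applied is not given in the sources used here. Read counts per gene symbol stand as the authors deposited them, unscaled; the 5 closing non-gene rows (28.2% to 37.0% of counts) were left out. RNA input was 50 ng, read as 75 base paired ends, per the labels' protocols.

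Libraries were grouped by title. No label ties each library to an animal of its own, and p-values reflect library-to-library spread alone, technical spread included. Pairs of one title differed beyond sampling noise (chi-square per degree of freedom 4.10 to 60.1). CPM was computed over gene rows, without the TMM factors. Genes were tested with edgeR 4.0.16 (R 4.3.3; TMM, count minimum 10, total count minimum 15, quasi-likelihood test, Benjamini-Hochberg adjustment over 13333 genes, threshold 0.05), fitted on all 8 libraries. The fitting code was also checked on simulated counts. Errors of log2 folds are standard errors from the F statistic. FPKM used exon lengths of the GENCODE M21 basic annotation (GRCm38, the assembly of mm10), which matched 24045 symbols. Single values were compared by exact permutation tests. Intervals cover 95%.

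The 10 genes and all lists were chosen with earlier results of these data known. Named list members are the up to 4 called genes with the smallest p, or 2 where none was called, and the most abundant of the marker lists. Some list members are not reported here by name. Alternatives were DESeq2 1.42.0 and its size factors, limma-voom 3.58.1, filters, the replicate block, an exon-length correction and libraries left out. Same-numbered libraries did not deviate together.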

Additional observations from a re-analysis of the deposited data

How the results depend on the processing

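Tfrc, Steap3 and Slc40a1 kept their direction and call under all 16 alternatives (DESeq2 test and size factors, limma-voom, filters, the replicate block, the exon-length correction and libraries left out), and Fth1, Ncoa4 and Slc11a2 kept their direction without a call. The Aco1 call was lost under 4 and Ireb2 gained a call under 1. The count of the 10 genes called higher ran from 3 to 4 and that called lower from 0 to 1 with single libraries left out, the 1 being Ireb2. Ftl1, not called, ran from -0.0153 (reversed, without E1WT 4) to 0.154 with single libraries left out, and Hmox1, not called, reversed to 0.0029 without E1WT 4 (range -0.182 to 0.0029 with single libraries left out) and to 0.0585 without E1KO 1 and E1WT 4 together. The log2 difference of the Fth1 to Ftl1 ratio ran from -0.0035 (without E1WT 2) to 0.0485; it was 0.02 over all libraries. The cause of these reversals was not tested. For all genes, the counts higher and lower were 1194 to 1659 and 1010 to 1566 with single libraries left out, 1558 and 1558 with DESeq2 size factors, and 2004 and 1956 with the exon-length correction. With the replicate number as a block, 1151 and 1005 were called, with 3 of the 10 genes higher. Same-numbered libraries correlated at -0.10 to 0.01 once each title's mean was taken out. With so few libraries this cannot settle whether same-numbered libraries share more than a number. Low counts limit Hmox1 and Slc40a1 most.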
